A study of Mus musculus with 8 samples.

Results

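The synaptonemal complex is the protein ladder that joins homologous chromosomes along their length in meiotic prophase. The 9 mouse genes described here encode most of it, together with a pair of proteins of the chromosome axes on which it is built. They are Sycp1, Sycp2, Sycp3, Syce1, Syce2, Syce3, Tex12, Hormad1 and Hormad2, and they were found by matching the Entrez identifiers of a deposited count table to these symbols. All 9 were among the 21950 genes of the table, and no filter on low counts was applied. The rule that picks them uses their names and no measured value, although earlier results of these data were known when the set was proposed.

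The question put to them was how far their transcripts differed between germ cells made in culture and germ cells of the fetal ovary. In the d6PGCLC group, primordial germ cell-like cells (PGCLCs) were made from induced pluripotent stem cells of the BVSC-iPSC line, a female line that carries Blimp1-Venus and Stella-ECFP reporters. The cells were collected at day 8 of the culture, 6 days after the epiblast-like stage, as cells positive for both reporters. In the E12.5 PGC group, primordial germ cells (PGCs) came from female gonads of C57BL/6J fetuses at E12.5 (embryonic day) and were sorted as positive for both SSEA1 and integrin β3. Each group held 4 pools of cells from independent experiments, and each pool gave 1 library of poly(A) RNA. No pool received a further treatment. All d6PGCLC pools came from 1 line, the fetuses of a PGC pool were not kept apart, and the sort used different markers in the 2 groups. The paper also cites work that likens d6PGCLCs to migrating PGCs, a stage before E12.5. Cell type, developmental stage, genetic background, culture and sort therefore cannot be told apart in this comparison.

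During prophase each pair of sister chromatids is organised in loops along an axis, which holds cohesin with the REC8 subunit and the HORMA-domain proteins HORMAD1 and HORMAD2. SYCP2 and SYCP3 coat the axes and become the lateral elements of the ladder. SYCP1 forms the transverse filaments, its rungs, and SYCE1, SYCE2, SYCE3 and TEX12 form the central element in the middle. In the female mouse, germ cells receive the signal for meiosis in the fetal ovary around the age sampled here, and the transcription factor STRA8 is needed for a full entry into prophase. Several genes of the complex are transcribed in germ cells before that, and in mouse their promoters are known to be released as DNA methylation is lost.

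The promoters of 4 genes are shown because each holds an E-box outside annotated transcribed sequence, 3 of them together with an E2F-type motif. Syce2 also holds both motifs, before its second start site, but within annotated transcribed sequence, and is not printed. The 250 bases before the RefSeq start sites (GRCm38.p6) were searched on both strands for the E2F-type motif TTCCCGC, for the E-box CACGTG and for CNCCTCAG, a motif described for STRA8. The E2F motif was found in 3.82% of 32851 such windows of all genes and in 8.27% of the windows with at least 10 CpG. The E-box was found in 6.02% and 9.37%, and CNCCTCAG in 6.42% and 7.45%. All 9 genes matched the table, with 12 windows between them. The Hormad1 window lies at chr3:95559427-95559676 on the plus strand, the Tex12 stretch at chr9:50561326-50561518 on the minus strand, the Sycp3 stretch at chr10:88459337-88459568 on the plus strand, and the Sycp1 window at chr3:102936101-102936350 on the minus strand. The last 57 bases before the Tex12 start and the last 18 before the Sycp3 start were left out because GENCODE annotates transcribed sequence there. Capitals mark the E-box, and the E2F motif as GCGGGAA on the strand shown.
Hormad1: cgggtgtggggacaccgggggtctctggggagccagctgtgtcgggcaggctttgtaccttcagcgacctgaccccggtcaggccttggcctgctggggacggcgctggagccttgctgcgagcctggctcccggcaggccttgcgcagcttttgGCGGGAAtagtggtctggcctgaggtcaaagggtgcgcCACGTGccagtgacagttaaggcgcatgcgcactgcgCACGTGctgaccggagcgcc
Tex12: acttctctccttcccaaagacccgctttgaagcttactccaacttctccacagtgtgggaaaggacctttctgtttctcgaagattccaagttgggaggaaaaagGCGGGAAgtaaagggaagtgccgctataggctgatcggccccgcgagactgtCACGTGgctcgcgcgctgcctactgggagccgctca
Sycp3: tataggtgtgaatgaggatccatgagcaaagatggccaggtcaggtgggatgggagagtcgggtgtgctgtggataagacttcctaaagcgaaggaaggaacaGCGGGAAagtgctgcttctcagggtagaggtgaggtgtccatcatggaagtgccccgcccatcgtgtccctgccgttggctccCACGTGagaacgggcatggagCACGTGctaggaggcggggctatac
Sycp1: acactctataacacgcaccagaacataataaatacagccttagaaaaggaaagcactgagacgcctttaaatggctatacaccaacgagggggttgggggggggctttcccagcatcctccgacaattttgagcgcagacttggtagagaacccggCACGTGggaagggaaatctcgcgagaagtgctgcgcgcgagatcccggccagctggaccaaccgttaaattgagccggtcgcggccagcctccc

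In Hormad1 the E2F motif began 95 bases before the start site and the E-boxes 57 and 20 bases before it. In Tex12 the E2F motif lay at 145 and the E-box at 93 bases. In Sycp3 the E2F motif lay at 147 bases and the E-boxes at 64 and 43. Sycp1 held an E-box at 94 bases and no E2F motif. Of the other 5 genes, Syce2 held all 3 motifs before the second of its 2 start sites, with the STRA8 motif and the E2F motif overlapping at 39 and 34 bases, and none before the first. Hormad2 held only the STRA8 motif, at 109 bases. Sycp2, Syce1 and Syce3 held none of these letters in their windows, which says nothing of the factors themselves. A match is a stretch of letters and was not tested as a binding site.

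The libraries held 7991437 to 12024841 counts, so that 3 counts corresponded to 0.249 to 0.383 CPM, the count scaled to the TMM-adjusted size of the library. A gene was called at an adjusted p of at most 0.05 together with a log2 fold change of at least 2 in size, with fold changes given as d6PGCLC over E12.5 PGC. Of the 9 genes, 5 were called lower in d6PGCLCs (Sycp1, Sycp2, Syce1, Tex12 and Hormad1) and 0 higher, while 3.37% of all genes were called lower and 3.24% higher. By the adjusted p alone, all 9 were lower, against 15.4% of all genes. In 8 of 9, all but Syce2, every E12.5 PGC library lay above every d6PGCLC library, as it did for 14.8% of all genes. Many genes of the table had few or no counts. Among the 11487 genes that averaged 1 CPM or more over the 8 libraries, a cut chosen after the counts were seen, these shares were 3.14% called lower, 25.6% lower by the adjusted p and 24.1% without overlap. Tex12, Sycp2 and Syce3 reached that average only through the PGC libraries. The median log2 fold change of the 9 was -2.34, beside 0 for all genes. In bulk libraries, fewer cells with a transcript and less of it in each cell cannot be told apart.

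**Figure D1:**
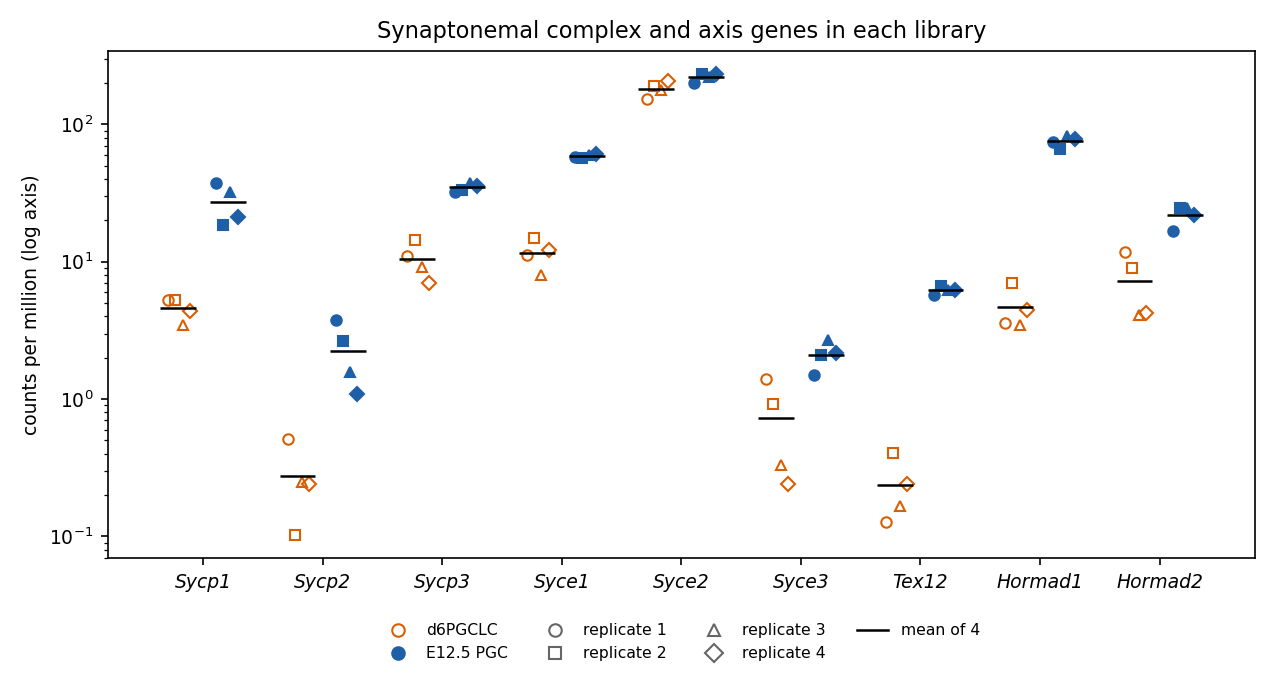
CPM of the 9 genes in each library, on a log axis. Open orange symbols are the 4 d6PGCLC pools, filled blue symbols the 4 E12.5 PGC pools, symbol shapes the replicates, and black bars the means. The groups overlap only for Syce2, and Tex12 and Hormad1 show the widest gaps.

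The axis genes Hormad1 and Hormad2 differed in how far apart the groups lay. Hormad1 (Entrez 67981, chr3:95559677-95587863), whose protein marks axes that have not yet synapsed, had 74.1, 66.0, 82.2 and 77.7 CPM in E12.5 PGC replicates 1 to 4. In d6PGCLC replicates 1 to 4 it had 3.57, 7.02, 3.48 and 4.49 CPM. The lowest PGC pool was thus far above the highest d6PGCLC pool, which was replicate 2. The means were 75.0 ± 6.85 and 4.64 ± 1.65 CPM (SD, n = 4 each), a log2 fold change of -4.01 (SE 0.18, edgeR adjusted p = 4.69e-13). E12.5 PGCs therefore held 16.1-fold more Hormad1 (95% interval 12.6 to 20.6).

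Hormad2 (Entrez 75828, chr11:4345801-4441198), a partner of HORMAD1 on the same axes, had 16.6, 24.7, 24.5 and 22.0 CPM in the PGC replicates. The d6PGCLC replicates had 11.7, 9.06, 4.07 and 4.24 CPM. Replicates 1 and 2 of the d6PGCLCs lay above replicates 3 and 4, but all were below the lowest PGC pool. This gave a log2 fold change of -1.61 (SE 0.25, edgeR adjusted p = 3.12e-05), which is short of the fold needed for a call. The fitted fold was 3.06 in PGCs over d6PGCLCs, beside 16.1 for Hormad1, and the fold intervals of the 2 genes (2.17 to 4.33 for Hormad2) did not overlap. The difference between the 2 folds was not tested in a model of its own.

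The lateral element genes were both lower in d6PGCLCs. Sycp3 (Entrez 20962, chr10:88459587-88473236), which encodes the main lateral element protein, had 32.3, 33.5, 37.6 and 35.5 CPM in the PGC replicates. It had 11.0, 14.5, 9.21 and 7.03 CPM in the d6PGCLC replicates. The PGC pools were close to each other and the d6PGCLC pools spread more widely, without overlap. The log2 fold change was -1.73 (SE 0.18, edgeR adjusted p = 8.56e-08), a 3.33-fold difference. Sycp3 shares 660 bp of annotated exon with Chpt1 on the opposite strand. Whether the counting used strand is not stated, so reads of the 2 genes may not have been kept apart. Chpt1 had 30.8 ± 4.15 CPM in d6PGCLCs and 29.5 ± 2.21 in PGCs (SD, n = 4 each; edgeR adjusted p = 0.928).

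Sycp2 (Entrez 320558, chr2:178345295-178407776), the partner of SYCP3 in the lateral element, rested on few reads. The PGC replicates had 3.74, 2.63, 1.57 and 1.08 CPM, from 30, 25, 17 and 12 counts. The d6PGCLC replicates had 0.511, 0.102, 0.249 and 0.242 CPM, from 4, 1, 3 and 2 counts. The groups did not overlap, although the PGC pools themselves ranged widely. This gave a log2 fold change of -2.996 (SE 0.60, edgeR adjusted p = 0.000110). The summed counts per depth were 8.08-fold higher in PGCs, with a 95% interval from counting error alone of 4.19 to 17.5. The isoform counted for Sycp2 had 1972 bp of exon, against 5717 bp in the longest annotated transcript, so reads on the other exons were not counted.

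Sycp1 (Entrez 20957, chr3:102818499-102936100), the transverse filament gene, was the member with the most uneven PGC pools at its level. Its PGC replicates had 37.4, 18.4, 32.3 and 21.03 CPM, and the d6PGCLC replicates 5.23, 5.29, 3.48 and 4.36 CPM. Replicates 1 and 3 of the PGCs were high and replicates 2 and 4 low, yet the lowest of them was well above all d6PGCLC pools. The means of 27.3 ± 9.05 and 4.59 ± 0.853 CPM (SD, n = 4 each) gave a log2 fold change of -2.58 (SE 0.23, edgeR adjusted p = 9.90e-09). The fold was 5.96 in favour of PGCs.

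Of the 4 central element genes, Tex12 had the largest fitted fold change and Syce2 the smallest. The rank of Tex12 against Hormad1 was not settled, since their 95% fold intervals overlapped (13.2 to 47.2 for Tex12) and a prior count of 2 gave -3.86 for Tex12 and -3.95 for Hormad1 on the log2 scale. Tex12 (Entrez 66654, chr9:50557148-50561268), whose protein assembles with SYCE2 into the fibres of the central element, had 5.74, 6.63, 6.27 and 6.23 CPM in the PGC replicates. The d6PGCLC replicates had 0.128, 0.407, 0.166 and 0.242 CPM, from 1, 4, 2 and 2 counts. All PGC pools were nearly level and all d6PGCLC pools near the limit of detection. The log2 fold change was -4.64 (SE 0.47, edgeR adjusted p = 1.69e-09). The summed counts per depth were 26.3-fold higher in PGCs, with a counting interval of 13.6 to 58.2.

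Syce2 (Entrez 71846, chr8:84872111-84887446), the gene of that partner, had 200, 233, 221 and 233 CPM in the PGC replicates. It had 152, 189, 178 and 206 CPM in the d6PGCLC replicates. The groups overlapped, since d6PGCLC replicate 4 lay above PGC replicate 1. The log2 fold change was -0.29 (SE 0.10, edgeR adjusted p = 0.0278), a 1.22-fold difference (95% interval 1.07 to 1.40). An exact two-sided permutation test of its CPM over the 8 libraries gave p = 0.0571, against 0.0286 for each of the other 8 genes, the smallest that 4 libraries against 4 can give. The adjusted p of Syce2 was above 0.05 when E12.5 PGC replicate 2, 3 or 4 or d6PGCLC replicate 1 or 3 was left out.

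Syce1 (Entrez 74075, chr7:140777229-140787854), which links the transverse filaments to the central element, had 57.5, 56.5, 60.0 and 60.3 CPM in the PGC replicates. It had 11.1, 15.0, 8.05 and 12.2 CPM in the d6PGCLC replicates, and the groups lay far apart. The log2 fold change was -2.34 (SE 0.15, edgeR adjusted p = 1.45e-10), a 5.08-fold difference. Syce3 (Entrez 75459, chr15:89390174-89410503), which acts early in central element assembly, had only 12 to 29 counts in each PGC library and 2 to 11 in each d6PGCLC library. Its PGC replicates had 1.50, 2.11, 2.67 and 2.17 CPM and its d6PGCLC replicates 1.40, 0.916, 0.332 and 0.242 CPM. The groups stayed apart by a narrow margin, between replicate 1 of each. Its log2 fold change was -1.59 (SE 0.46, edgeR adjusted p = 0.00754). Without d6PGCLC replicate 1 it was -2.07, which passed the fold threshold.

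**Figure D2:**
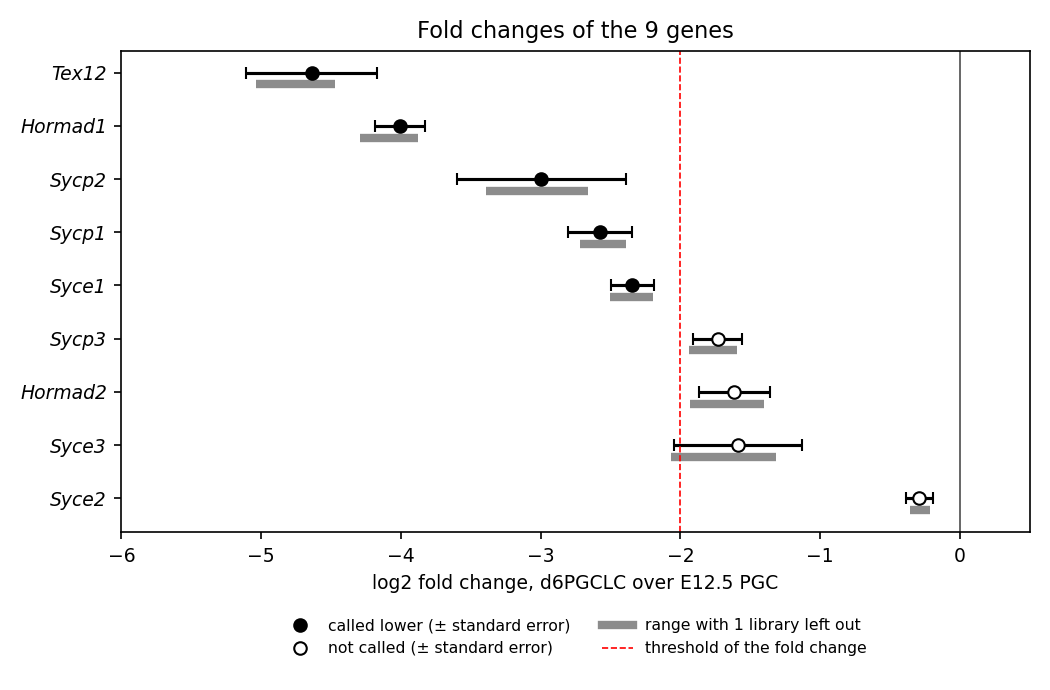
Log2 fold changes of the 9 genes, d6PGCLC over E12.5 PGC, with standard errors. Filled symbols passed both thresholds, grey bars span the values with each library left out in turn, and the dashed line marks the fold threshold of -2. Tex12 at -4.64 and Syce2 at -0.29 are the extremes of the fitted values, and of the 9 grey bars only that of Syce3 crosses the threshold.

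Levels of different genes were compared as reads per kilobase of counted exon scaled to library size (RPKM). The counted isoform was drawn at random. Its exon length over that of the longest GENCODE transcript ran from 0.34 for Sycp2 to 1.55 for Hormad1. The order of genes may depend on the isoform drawn, and the Sycp3 level may hold reads of Chpt1. In d6PGCLCs, Syce2 stood apart from the rest at 131 ± 16.5 RPKM (SD, n = 4), followed by Sycp3 at 7.03 ± 2.12, Syce1 at 5.85 ± 1.44 and Hormad2 at 4.08 ± 2.11. Hormad1 at 1.98 ± 0.706, Syce3 at 1.27 ± 0.956 and Sycp1 at 0.966 ± 0.179 came next, and Tex12 at 0.289 ± 0.152 and Sycp2 at 0.140 ± 0.0865 were lowest. Among neighbours in this order, only Syce2 and Sycp3, and Sycp1 and Tex12, had library values that did not overlap.

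In E12.5 PGCs the order changed. Syce2 was again highest at 159 ± 11.2 RPKM, and Hormad1 was second at 32.0 ± 2.93, with overlapping values for Syce1 at 29.6 ± 0.942. Sycp3 at 23.4 ± 1.58 and Hormad2 at 12.3 ± 2.12 followed, each apart from its neighbours. Tex12 at 7.61 ± 0.448 overlapped Sycp1 at 5.74 ± 1.90, which overlapped Syce3 at 3.72 ± 0.849. Sycp2 was lowest at 1.14 ± 0.600, with no overlap. Hormad1 was thus the fifth gene of the d6PGCLCs and the second of the PGCs. Tex12 and Syce2, which encode partners, were far apart in RPKM in both groups.

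The PGC pools were not alike for every member. The unevenness was measured as a chi-square of the 4 libraries' counts per degree of freedom, which is about 1 where libraries differ by counting error alone. It was 28.2 for Sycp1, where the median of genes of like level was 2.76, and 6.07 for Sycp2, where that median was 1.47. For Tex12 it was 0.185 (median 1.88) and for Syce1 0.591 (median 3.87), so these genes were as even among the PGC pools as counting allows. A pair of genes outside the set, chosen after their counts were seen, gave still higher values, Stra8 with 79.4 and the cohesin gene Rec8 with 54.1. Stra8 had 20.5, 2.74, 18.9 and 3.70 CPM in the PGC replicates, and Rec8 had 76.9, 37.3, 61.9 and 43.5. Sycp1, Stra8 and Rec8 put the PGC pools in the same order, with replicate 1 highest, then 3, 4 and 2, an order that 14.2% of the 11487 genes that averaged 1 CPM or more also had.

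Other measures differed between the same pools. Fut4, a fucosyltransferase gene of the germ cell marker list, had 12.4, 6.52, 13.7 and 6.86 CPM in the PGC replicates. Summed over 3 blood cell markers in the table, the PGC pools ranged from 0 to 26.4 CPM, of which most was Hbb-y in replicate 2 at 26.0 CPM. Y-linked transcripts, summed over 5 genes, were at 0 in 3 of the PGC pools and reached 8.76 CPM, from 97 counts, in replicate 4, a pool labelled female. Their part in the order of the pools was not tested. Without replicates 2 and 4, the same number of the 9 genes, 5, was called lower, and the log2 fold change of Sycp1 was -2.93.

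Among the d6PGCLC pools, Hormad2 was the most uneven member for its level, with a chi-square per degree of freedom of 18.4 (median of genes of like level 3.09). Its values in replicates 1 and 2 were above those in replicates 3 and 4, as were those of Syce3, Sycp3 and Sycp1, an arrangement found in 23.2% of the genes that averaged 1 CPM or more. Dazl, the RNA-binding licensing factor of germ cells, had 50.5, 63.9, 17.8 and 18.5 CPM in these replicates.

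**Figure D3:**
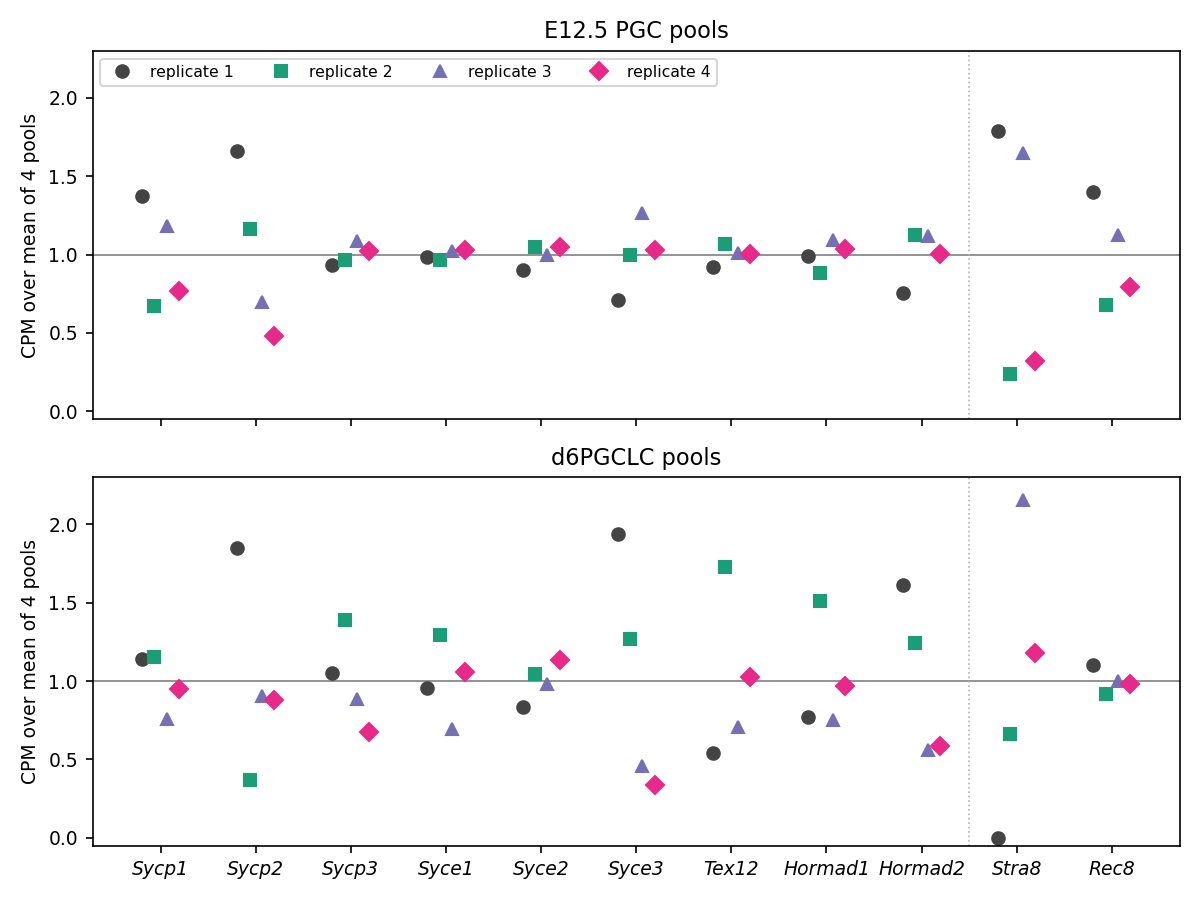
CPM of each gene in each pool divided by the mean of its group's 4 pools, with E12.5 PGCs above and d6PGCLCs below. Symbols mark the replicates, and Stra8 and Rec8 to the right of the dotted line are given for comparison. Replicates 1 and 3 of the E12.5 PGCs are high for Sycp1, Stra8 and Rec8, while Syce1 and Tex12 lie close to 1 in all 4.

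Other genes of meiotic chromosomes were described by the same fit. Of 42 further genes in 6 lists, 9 were called lower and 1 higher in d6PGCLCs, and by the adjusted p alone 21 were lower, 7 higher and 14 neither. Of all genes, 3.37% were called lower and 3.24% higher, and by the adjusted p alone 15.4% were lower and 16.1% higher, or 25.6% and 28.1% of the genes that averaged 1 CPM or more. The 7 of 42 that were higher are near the share of all genes and below that of genes averaging 1 CPM or more. The counts of each list below stand beside these same shares. The median log2 fold change of the 42 was -0.83, or -0.82 without Rad21l, a cohesin gene. Rad21l had 0 counts in d6PGCLCs and 8 in all PGC libraries together, and no fold is given for it. Of the 3 other genes of the complex or its loading, 0 passed in either direction, and the median was -0.32. Six6os1, a further central element gene, had 31.6 ± 1.63 CPM in d6PGCLCs and 39.4 ± 3.64 in PGCs (SD, n = 4 each; edgeR adjusted p = 0.0501). Iho1, which binds HORMAD1 for break formation, had a log2 fold change of -0.42 and Syce1l, a paralog of Syce1, one of -0.24.

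The cohesin subunits of the axes were split. Rec8 was higher in d6PGCLCs by the adjusted p, at 101, 84.5, 91.9 and 90.6 CPM in replicates 1 to 4, above every PGC library (log2 fold change 0.75, SE 0.16, edgeR adjusted p = 0.000764). Stag3 was lower, at 206 ± 36.8 CPM against 491 ± 29.6 (SD, n = 4 each; log2 fold change -1.25, edgeR adjusted p = 7.24e-09). Rad21l was called lower from the few counts given above. The direction of Rec8 was thus opposite to that of the 9 genes.

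Of 6 genes of telomere attachment and chromosome movement, 1 was called lower, Majin (log2 fold change -2.26), and by the adjusted p 2 were lower and 1 higher, Spdya (1.09), with a list median of -0.44. The 1 of 6 that was higher is near the share of all genes and below that of genes averaging 1 CPM or more. Sun1, the gene of this list highest in PGCs, had 42.5 ± 8.25 CPM in d6PGCLCs and 43.3 ± 0.828 in PGCs (SD, n = 4 each). Of 6 genes of double-strand break formation, 1 was called lower, Spo11, the gene of the enzyme that cuts the DNA, at 1.53 ± 0.951 against 11.6 ± 0.615 CPM (SD, n = 4 each; log2 fold change -2.87, edgeR adjusted p = 1.35e-07). By the adjusted p, 2 of these were lower and 0 higher, with a median of -0.93. Mei4 had the highest fold change of that list at 0.43 and did not pass (edgeR adjusted p = 0.0542), and Rec114, the highest in PGCs, was lower with a log2 fold change of -1.40.

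Strand exchange and crossover genes made up 19 of the 42. Called lower were 4, Tex11 (log2 fold change -2.73), Tex15 (-2.30), M1ap (-2.09) and Msh4 (-2.04), of which the last 3 are named after their values were seen. Msh4 rested on 12 counts over the d6PGCLC libraries and 52 over the PGC libraries, and its groups overlapped (edgeR adjusted p = 0.0119). Called higher was 1, Meiob, a single-strand DNA-binding factor, at 1.90 ± 1.47 against 0.419 ± 0.312 CPM (SD, n = 4 each; log2 fold change 2.16, edgeR adjusted p = 0.00833). The Meiob call was lost without E12.5 PGC replicate 4, d6PGCLC replicate 1 or d6PGCLC replicate 2. By the adjusted p, 10 genes of this list were lower and 5 higher, and the median was -0.82. The 5 of 19 that were higher are near the 28.1% of genes averaging 1 CPM or more and above the 16.1% of all genes. Zcwpw1, a reader of marked histones at break sites and the list's highest gene in PGCs, was lower with a log2 fold change of -1.66.

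All 5 genes of meiotic entry in the table were lower by the adjusted p, 2 of them called, with a median of -1.39. Dazl had 1580, 1018, 1299 and 1151 CPM in the PGC replicates, far above its d6PGCLC values, and a log2 fold change of -5.07 (SE 0.26, edgeR adjusted p = 2.45e-11). Stra8 was at 0, 0.204, 0.664 and 0.364 CPM in the d6PGCLC replicates (log2 fold change -5.02, SE 0.87, edgeR adjusted p = 3.77e-06). Ythdc2, an RNA helicase needed for meiotic progression, differed least, with a log2 fold change of -0.76.

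**Figure D4:**
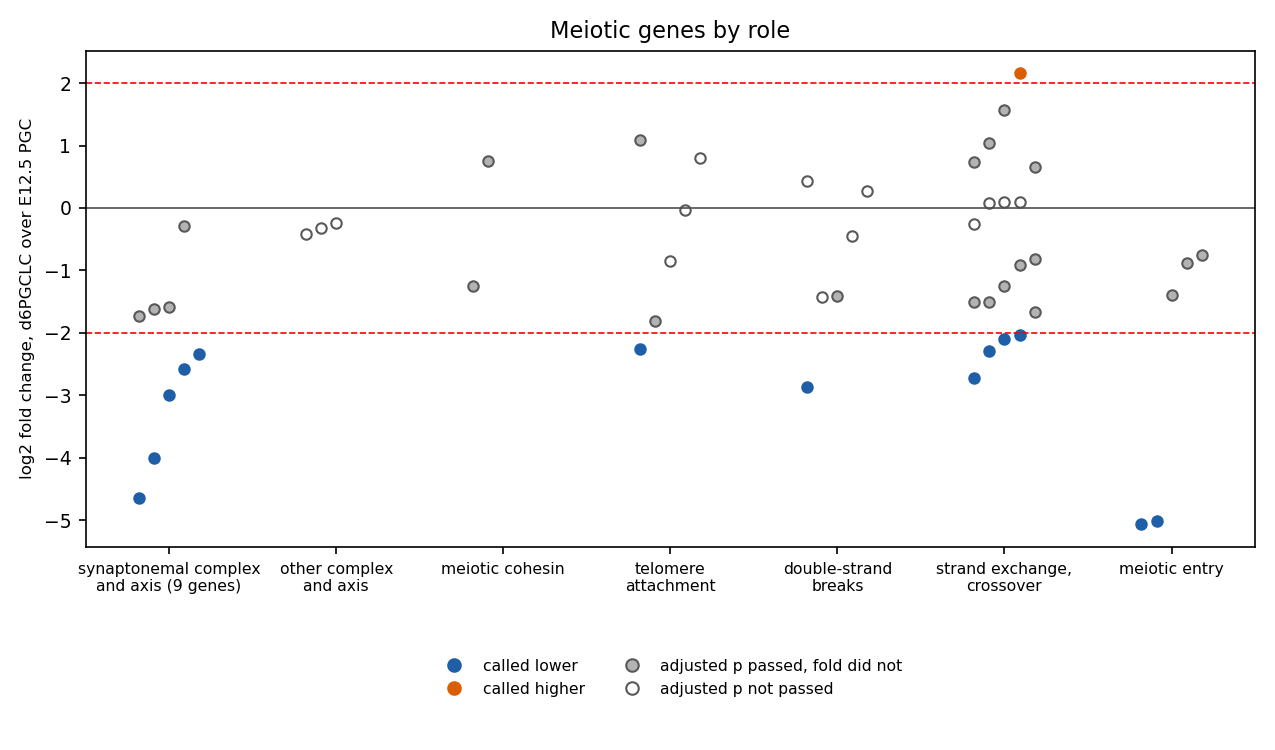
Log2 fold changes, d6PGCLC over E12.5 PGC, of the 9 genes and of 41 of the 42 further meiotic genes by role, with Rad21l left out because it has no fold. Blue points were called lower, orange higher, grey passed by the adjusted p alone and white did not pass, and dashed lines mark the fold thresholds. All 9 points of the first column lie below 0, and the cohesin, telomere, break and exchange columns hold points on both sides.

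Marker genes were read beside the labels. The germ cell list holds Prdm1, Dppa3 and Itgb3, which are genes of the sorts, so it is not an independent check of the labels. Summed over 10 germ cell markers, the pools had 3366 to 3699 CPM in PGCs and 3816 to 4456 in d6PGCLCs. Pou5f1, the pluripotency and germ cell factor that was highest of these in PGCs, had 1632 ± 157 CPM in d6PGCLCs and 980 ± 107 in PGCs (SD, n = 4 each; log2 fold change 0.74). Of the 10, 2 were called lower in d6PGCLCs, Ddx4 (log2 fold change -4.42), the helicase of later germ cells, and Fut4 (-3.48). Blimp1 and Stella, the genes of the reporters (Prdm1 and Dppa3), were higher there by the adjusted p, with log2 fold changes of 1.21 and 0.85. Itgb3, the gene of integrin β3 in the PGC sort, was lower there (log2 fold change -0.72, edgeR adjusted p = 9.08e-07). By the adjusted p, 5 of the 10 markers were higher, 3 lower and 2 neither, beside 16.1% of all genes higher and 15.4% lower. The 8 markers of gonadal somatic cells in the table summed to 2.71 to 5.74 CPM in PGCs and 0.332 to 1.21 in d6PGCLCs, with 4 called lower, among them Wnt4 at 48 counts in all PGC libraries together and 4 in all d6PGCLC libraries, while Nr2f2 had 12 and 10 counts.

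The 5 endothelial markers summed to 22.5 to 37.1 CPM in PGCs and 55.8 to 81.1 in d6PGCLCs. Egfl7 was called higher in d6PGCLCs at a log2 fold change of 2.03. Cdh5 was higher by the adjusted p, at 11.0 ± 4.13 against 4.18 ± 1.16 CPM (SD, n = 4 each; log2 fold change 1.39, edgeR adjusted p = 0.000193), with all d6PGCLC libraries above all PGC libraries. Tek did not pass, with 16.3 ± 2.14 and 14.0 ± 2.67 CPM. Kdr had 4 counts in all d6PGCLC libraries together and 8 in the PGC libraries, and Emcn 0 and 6. The blood markers summed to at most 0.121 CPM in d6PGCLCs and the Y-linked genes to 0.

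The 3 genes of fetal male germ cells summed to 1.99 to 2.87 CPM in PGCs and 0.581 to 1.66 in d6PGCLCs. Piwil4 was called lower in d6PGCLCs, with 11 counts over the d6PGCLC libraries and 89 over the PGC libraries. Dnmt3l was called higher at a log2 fold change of 2.44, with 23 and 4 counts, and Nanos2 was at 0 in every library. The part of other cell types in the values of the 9 genes was not tested.

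The genes whose profile over the 8 libraries was most like that of Sycp3 were found among 9284 genes that averaged 5 CPM or more, by the Euclidean distance of centred log2(CPM + 0.5) values. They were Hsf2bp (distance 0.415), Mdk (0.435), Tex19.1 (0.451), Tbx4 (0.455) and Cdk6 (0.496). Of these, Hsf2bp, whose protein acts in meiotic recombination, had a log2 fold change of -1.50 and Tex19.1, a germ cell gene, one of -1.74. Mdk, Tbx4 and Cdk6 had log2 fold changes of -1.72, -1.88 and -1.695. The other 8 genes of the complex were left out of this ranking by its rule.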

How the data were processed

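Poly(A) RNA of 4 d6PGCLC pools and 4 E12.5 PGC pools was sequenced single-end with a stranded kit. The authors deposited raw counts per gene. They aligned reads with STAR to GRCm38 (mm10) with spike-in sequences added, drew 1 isoform per gene at random, dropped genes at random where promoters overlapped, and counted uniquely mapped reads on the exons of that isoform. Strand use in counting is not given in the sources used here. Counts were fitted in R 4.3.3 with edgeR 4.0.16 (TMM, prior count 0.125, quasi-likelihood test, cell type as the only term), with Benjamini-Hochberg adjustment over all 21950 genes. Symbols came from RefSeq for 21907 identifiers, and 4940 genes had no count. CPM used TMM-scaled library sizes, and RPKM the deposited exonic length. Sequences and windows came from RefSeq (GRCm38.p6), overlaps and transcript lengths from GENCODE M21. On simulated data for this comparison, over 21950 genes, 200 of 200 changed genes and 1 of 21750 unchanged genes were called. The changed genes were all well counted, with folds of the same size above the threshold, and the same spread was set for every gene. Recovery was thus not simulated for genes with as few counts as Tex12, Sycp2 and Syce3, or for folds near the threshold. Pools came from separate experiments, and p-values measure the spread between them. Intervals of summed counts (95%) cover counting error only. The members and lists were chosen with earlier results of these data known. Named genes are the 9 members, in each meiotic list and in the germ cell, gonadal, endothelial and male lists those with the largest and smallest fold change and the highest PGC level, and the 5 nearest to Sycp3. Other genes (Stra8, Tex15, M1ap, Msh4, Fut4, Dppa3, Itgb3, Cdh5, Kdr, Nanos2, Hbb-y and the genes that overlap members) were named after their values were seen. Lists are described by counts and medians, with no set test. Alternatives used DESeq2 1.42.0, the likelihood ratio test of edgeR, other normalizations, filters, prior count, thresholds, a replicate block and leaving out libraries. Leaving out E12.5 PGC replicates 2 and 4 together was added after seeing the data.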

Additional observations from a re-analysis of the deposited data

How the results depend on the processing

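The 9 genes stayed lower in d6PGCLCs under every alternative run, and Sycp1, Sycp2, Syce1, Tex12 and Hormad1 stayed called in each. With the fold threshold lowered to 1 on the log2 scale, 8 of the 9 were called, with Sycp3 (-1.73), Syce3 (-1.59) and Hormad2 (-1.61) added. With glmTreat against 1, Sycp3 at -1.73 (adjusted p = 0.000986) and Hormad2 at -1.61 (adjusted p = 0.0432) also passed and Syce3 did not (adjusted p = 0.280). With 1 library left out, 5 to 6 were called, and the log2 fold change of Syce3 ranged from -2.07 to -1.31. Apart from glmTreat, the adjusted p of Syce2 was above 0.05 in 6 of 18 settings, at most 0.253, and that of the other 8 genes in none. Over all genes, 435 were called lower with CPM above 1 in at least 3 samples, 383 with filterByExpr, 382 with a prior count of 2 and 1481 at a fold change of at least 1 on the log2 scale, and 464, 450 and 1756 were called higher with the last 3 of these. Of the 42 further meiotic genes, 17 were called lower and 4 higher at that fold threshold. Called higher were 0 with either filter, with a prior count of 2 or with glmTreat, and 0 to 1 with a library left out (6 to 10 lower). Called lower were 7 with CPM above 1 in at least 3 samples, 6 with filterByExpr and 6 with a prior count of 2. The main fit and glmTreat each called 9 lower. Same-numbered pools correlated in their deviations from the group means at 0.302, 0.114, -0.0382 and 0.0411 (11487 genes). Not every pool correlated best with its own number. These correlations cannot decide whether some same-numbered pools were handled together, which the sources used here do not state. With a replicate block, 5 of the 9 genes were called lower and no call of the 9 changed, and over all genes 638 were called lower and 642 higher. Depth limits Tex12, Sycp2 and Syce3, which had at most 4, 4 and 11 counts in a d6PGCLC library. With a prior count of 2 the log2 fold change of Tex12 was -3.86 and that of Sycp2 -2.35.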
